A study of Drosophila melanogaster with 24 samples.

Results

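Neuropeptides and peptide hormones are the secreted signals with which neurons and endocrine cells of the fly adjust feeding, water balance, sleep, stress responses and courtship. The genes described here are 36 precursor genes listed by their FlyBase symbols. The list was chosen with earlier results of these data known. Of these, 35 were found among the 17559 genes of the expression table. Nplp2 is named only, because its current identifier was not matched, and it was not analysed here. The samples were single heads of 24 virgin Drosophila melanogaster males, 6 in each of 4 groups. The males had been housed singly and were 5 days old. Trained males spent sessions of 2 h with a mated female that rejects courtship, either 1 session (1X trained) or 3 sessions with gaps of 30 min (3X trained). Mock males (1X mock, 3X mock) were handled on the same schedule without a female, and heads were taken 1 h after the last session. Genotype or strain of the sequenced males is not given in the sources used here, and no transgene or drug is named in the labels. Both training comparisons ask whether an hour after rejection the precursor transcripts differ from the mock group of the same schedule. The comparisons of 3X with 1X flies differ in the number of sessions, in total handling time and possibly in the hour of collection, which cannot be told apart.

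A neuropeptide gene encodes a larger precursor that is cut by prohormone convertases, trimmed and often amidated inside dense-core vesicles, and the released peptide acts mostly on G protein-coupled receptors. Insulin-like peptides are processed in a similar way but act mainly on a receptor tyrosine kinase. Most of these precursors are made by small sets of brain cells, while a few come from fat body, glia or other non-neuronal cells of the head. A transcript level therefore describes the stock of message for a peptide and not its release. In whole heads, fewer cells of a type and less RNA per cell cannot be told apart.

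The values are RPKM as deposited, that is, reads scaled to exon length and to an effective library size. Whole read numbers could be recovered from them, and the libraries held 18950049 to 41449996 reads. The effective library size was 0.949 to 1.114 times the reads recovered, with the highest factor in 1X trained replicate 1. All 24 heads carried high levels of eye genes (the rhodopsin gene ninaE at 11358 RPKM or more) and of the neuronal gene elav (8.47 to 10.9 RPKM). The Hox genes Antp, Ubx, abd-A and Abd-B, which mark the ventral nerve cord, each stayed under 1 RPKM in every head. A pair of libraries stood apart. In 1X trained replicate 1 the summed level of 10 fat body markers was 638 RPKM against 1898 to 10176 RPKM in the other heads, and that of 11 midgut markers was 582 RPKM against 74.4 to 300.5 RPKM. Of the fat body markers, 1 gene alone had a median of 4103 RPKM, where the median of the sum was 5245 RPKM. In 3X mock replicate 6 the sum of 16 testis markers was 109.7 RPKM, against 1.59 RPKM or less elsewhere. The differences of precursor genes that moved most without either head are given below with and without it.

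Of the 35 genes, 29 reached 1 RPKM in at least 6 of 24 heads, the filter used for testing, and 6 did not (CCAP, CNMa, Akh, RYa, AstCC and Eh). The median level of the 29 genes was 34.6 RPKM, compared with 11.9 RPKM over all 10547 genes that passed the filter. Nplp3, a neuropeptide-like precursor of little known function, was by far the most abundant, with a median of 912 RPKM, higher than 99.5% of the genes tested. CCHa2, a nutrient-responsive hormone of fat body and gut that acts on brain insulin-producing cells, followed at 169 RPKM. Tk, the tachykinin precursor of brain neurons, was next at 84.6 RPKM. These were the 3 highest medians, and 22 genes lay between 10 and 100 RPKM.

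**Figure D1:**
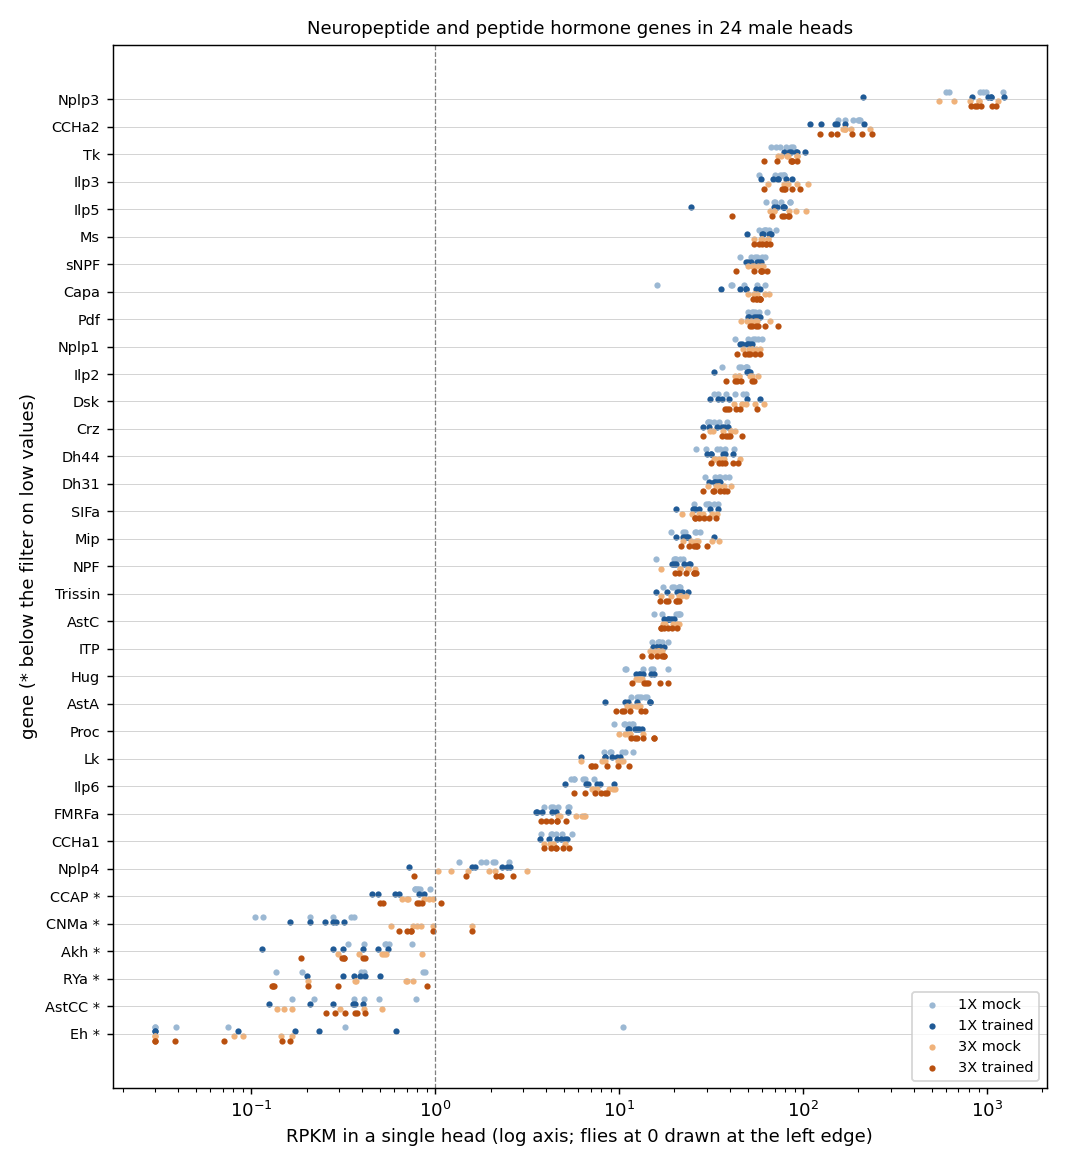
RPKM of each of the 35 precursor genes in every head (log axis; 1 point per fly, coloured by group, flies at 0 drawn at the left edge), ordered by the median over 24 flies. The dashed line marks 1 RPKM and stars mark the 6 genes below the filter. Nplp3 stands highest at a median of 912 RPKM, and no 2 groups compared separate fully for any gene that passed the filter.

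No gene of the 29 passed the test in any of the 5 comparisons (limma on log2(RPKM + 1), Benjamini-Hochberg adjusted over the 10547 genes, threshold 0.05). After 1X training 0 of 29 passed, where 4.94% of all genes tested did, and after 3X training 0 of 29 passed, where 2.27% did. Between 3X and 1X mock flies 0 of 29 passed against 4.34% of all genes, and between 3X and 1X trained flies 0 of 29 against 11.1%. The difference of the training effects of the 2 schedules gave 0 of 29 against 0.171%. At an unadjusted limma p below 0.05 the numbers of precursor genes were 0, 2, 4, 0 and 1 in the same order, where 20.8%, 21.2%, 16.9%, 26.2% and 11.6% of all genes fell below it. The voom variant of limma, run on the recovered reads, also called 0 of 29 in each comparison. In none of the 4 comparisons between groups did the values of any of the 29 genes separate without overlap, where 3.89% (after 1X training), 2.46% (after 3X training), 4.28% (3X against 1X mock) and 4.28% (3X against 1X trained) of all genes tested did.

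The intervals show how large a change could have gone unseen. The 95% interval of the log2 difference lay within ±0.5 for 25 of 29 genes after 1X training and for 26 of 29 after 3X training, and within ±1 for all 29 in both. The median log2 difference of the 29 genes was -0.02 after 1X training, with values from -0.30 to 0.25, and -0.04 after 3X training, with values from -0.32 to 0.22. Over all genes tested the medians were 0.00 and 0.01. The widest intervals belonged to Nplp3, Ilp5 and Capa, each of which has at least 1 head far from the rest.

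**Figure D2:**
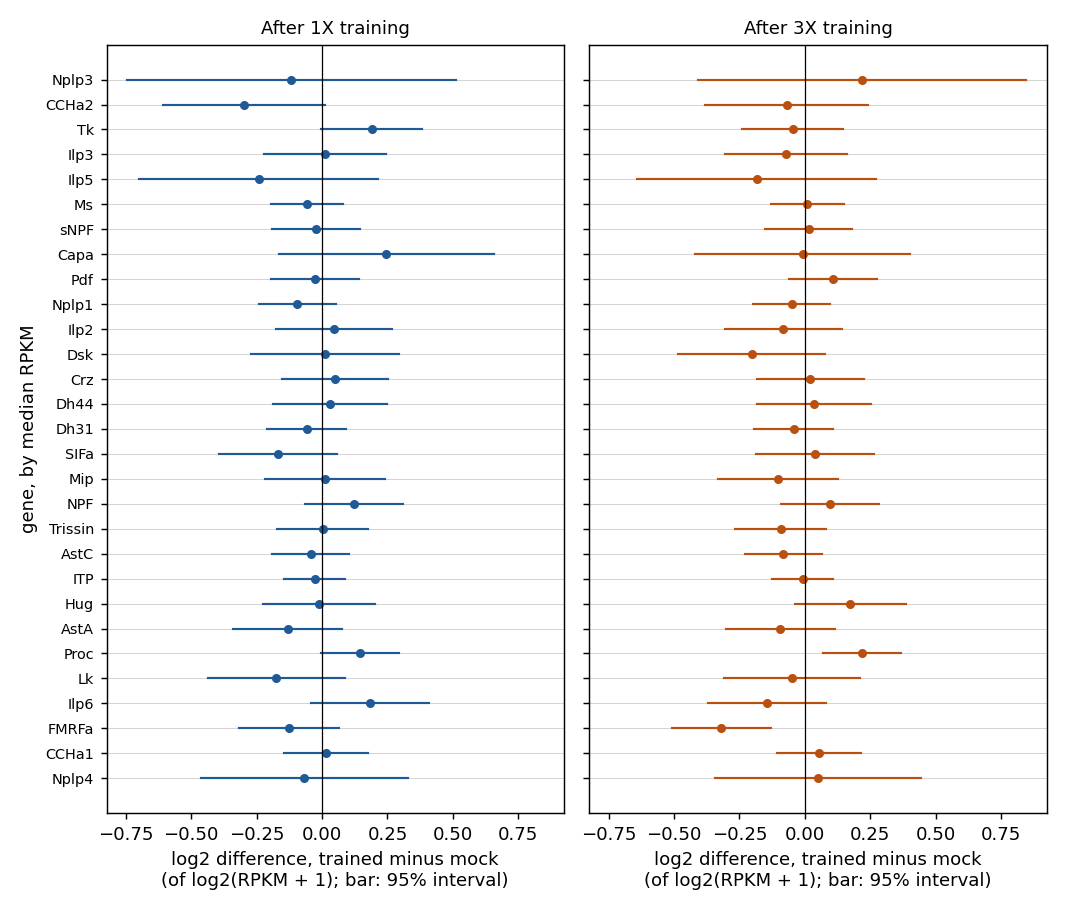
Log2 difference between trained and mock flies for the 29 precursor genes that passed the filter, after 1X (left) and 3X training (right), with 95% limma intervals (n = 6 heads a group). No gene passed the adjusted threshold; the FMRFa interval after 3X training, from -0.51 to -0.13, and that of Proc, from 0.07 to 0.37, do not reach 0.

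Among the insulin-like peptides, Ilp2, Ilp3 and Ilp5 come from the median neurosecretory cells of the brain, which control growth, sugar levels and lifespan, and Ilp6 is made mainly in fat body and in surface glia. The median levels were 48.9 RPKM for Ilp2, 78.6 RPKM for Ilp3 and 76.3 RPKM for Ilp5. Ilp2 and Ilp3 lie side by side on chromosome 3L and both overlap the gene CG32052, and Ilp5 overlaps CG43897. Overlaps named here are of gene spans from start to end, and whether exons or reads are shared was not examined. The libraries are unstranded. After training none of the 3 differed from mock beyond the spread between heads. Their log2 differences were 0.05, 0.01 and -0.24 after 1X training and -0.08, -0.07 and -0.18 after 3X training, with limma adjusted p from 0.589 to 0.978.

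Ilp6 (FBgn0044047, chromosome X, 2331493 to 2334658, BDGP6.54) came closest to the threshold of any precursor gene. It ranged from 5.46 to 7.34 RPKM (median 6.03) among 1X mock heads and from 7.12 to 9.52 RPKM (median 8.18) among 3X mock heads. Trained heads lay from 5.08 to 9.37 RPKM (median 7.17) with 1 session and from 5.66 to 8.57 RPKM (median 7.67) with 3. The 2 mock groups overlapped only through 1X mock replicate 6. The 3X mock mean was 8.26 ± 1.07 RPKM and the 1X mock mean 6.18 ± 0.708 RPKM (SD, n = 6 each). On the log2 scale they differed by 0.36 ± 0.11 (SE, limma adjusted p 0.0582), and all 6 of the 3X mock heads lay above the 1X mock mean. This difference passed the threshold in 7 of 36 alternative fits, among them those with sample weights (limma adjusted p 0.0288), with the compared groups alone (0.0178) and without 1X mock replicate 6 (0.0423), 1X trained replicate 2 (0.0397), 1X trained replicate 6 (0.0291) and 3X trained replicate 6 (0.0424). The trained heads are outside this comparison and enter only through the shared variance. Leaving out such a head kept the log2 difference at 0.36. Over the 36 fits the limma adjusted p of the mock difference reached 0.14. Between the trained groups the log2 difference was 0.04 ± 0.11 (SE, limma adjusted p 0.867). Ilp6 overlaps Raf.

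Ilp5 and Ilp2 were unusually low in one head, 1X trained replicate 1, a pattern noticed after the values were seen. Ilp5 (FBgn0044048, chromosome 3L, 9823349 to 9823897) stood at 24.7 RPKM there, against 69.8 to 79.1 RPKM in the other 1X trained heads. Ilp2 was 32.7 RPKM against 49.7 to 51.5 RPKM. Ilp3, at 59.0 RPKM, was also the lowest of its group. The same head was lowest of all 24 for 11 of the 29 precursor genes (37.9%), where it was lowest for 10.39% of all genes tested. Nplp3 was 211 RPKM in it against 552 RPKM or more in the other 23 heads, and CCHa2 was 109.7 RPKM against 123 RPKM or more. The summed level of the precursor genes, of which Nplp3 was the largest part, was 1084 RPKM there and 1660 to 2375 RPKM in the other heads. This head also held the lowest sum of fat body markers and the highest sum of midgut markers, as given above, and the lowest sum of 9 muscle markers (172 RPKM against 209 to 354 RPKM). Its sum of 11 neuron markers, 946 RPKM, lay near the low end of the 942 to 1159 RPKM of the others. The other 1X trained heads held 995 RPKM or more. The head at 942 RPKM, 3X trained replicate 3, had 26 of the 29 precursor genes below its group mean, against 23 in 1X trained replicate 1. It was lowest of all 24 for 4 of the 29 genes and for 9.51% of all genes tested. After 1X training all 7 muscle markers that passed the filter had a negative log2 difference (median -0.29), of which 1 was called lower. The part of these markers in the low precursor levels was not tested. Without 1X trained replicate 1 the log2 difference after 1X training moved from -0.24 to 0.02 for Ilp5, from -0.12 to 0.26 for Nplp3 and from -0.30 to -0.21 for CCHa2, and none passed the threshold (limma adjusted p 0.965, 0.457 and 0.481). It also moved from 0.05 to 0.15 for Ilp2, from 0.01 to 0.07 for Ilp3, from 0.01 to 0.08 for Dsk, from 0.00 to 0.07 for Trissin and from -0.07 to 0.07 for Nplp4. It shrank from -0.13 to -0.04 for AstA, from -0.17 to -0.09 for both Lk and SIFa, and from -0.06 to 0.00 for Ms (limma adjusted p 0.382 or more for these 9 genes). Without 3X mock replicate 6 the difference after 3X training moved from 0.22 to 0.32 for Nplp3, from 0.05 to 0.17 for Nplp4 and from 0.04 to -0.03 for SIFa (limma adjusted p 0.624 or more).

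**Figure D3:**
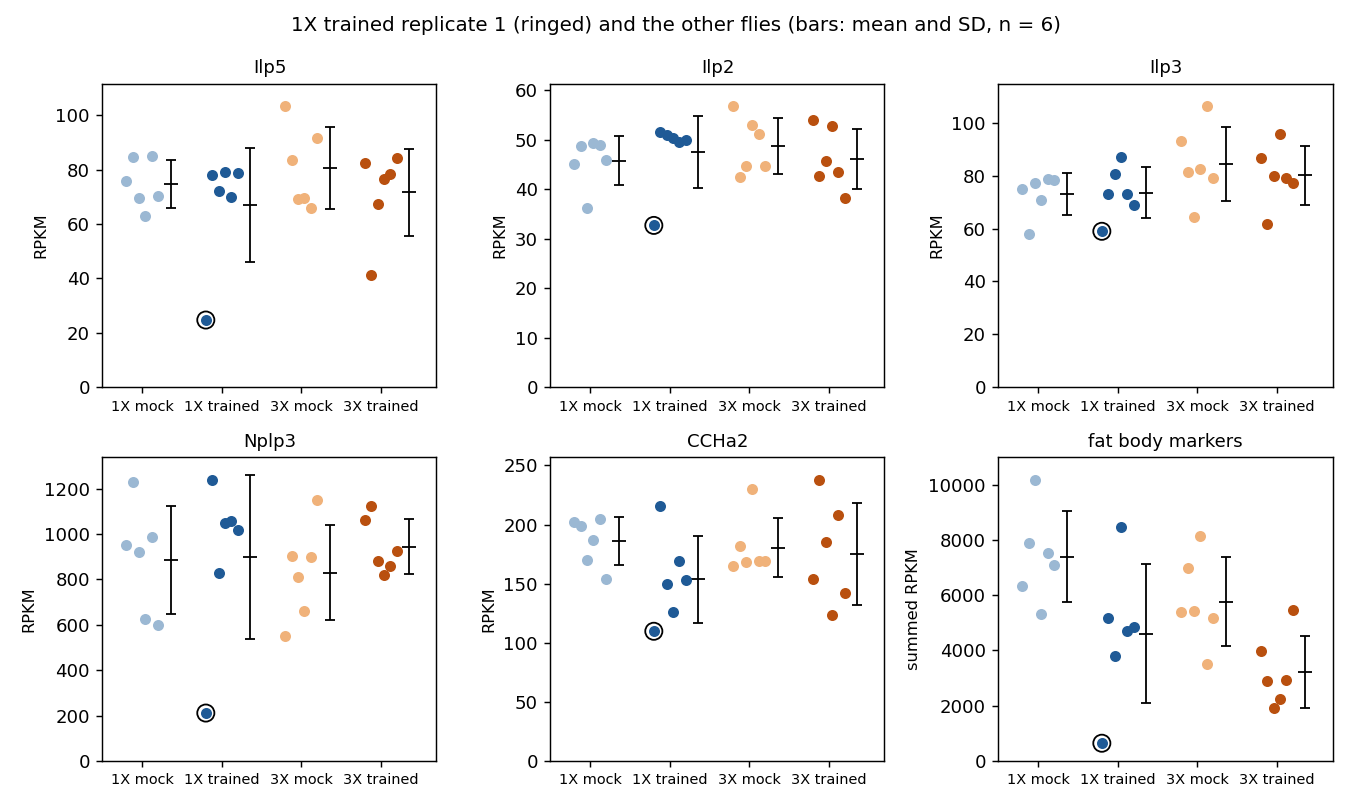
RPKM of Ilp5, Ilp2, Ilp3, Nplp3 and CCHa2 and the summed RPKM of the fat body markers in each head by group (points: single flies; bars: mean and SD, n = 6; every axis starts at 0). The ringed head, 1X trained replicate 1, is lowest of all 24 in every panel except Ilp3, where 1X mock replicate 2 is lower at 57.8 RPKM.

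Because Ilp2, Ilp3, Ilp5 and Dsk are made in part by the same neurosecretory cells, their co-variation between heads was examined, together with the pairs Pdf and Nplp1, and Akh and Capa. Over 24 heads, after removing the group means, none of the 8 pairs passed (permutation test within groups, 100000 resamples, two-sided, Benjamini-Hochberg over the 8 pairs). For Ilp2 and Ilp5 Pearson's r was 0.60 (permutation p 0.0411, adjusted 0.11) and Spearman's rho was 0.42 (permutation p 0.0511, adjusted 0.204). That relation rested largely on 1X trained replicate 1, without which r was 0.20. With 1X mock replicate 3 also left out, r was 0.17. Within the groups it ran from 0.12 to 0.99. For Ilp2 and Ilp3 r was 0.49 (permutation p 0.0245, adjusted 0.105) and rho was 0.49 (permutation p 0.0273, adjusted 0.204). Without the 2 farthest heads r was 0.49, but without 1X trained replicate 1 alone it was 0.35. Within 1X mock flies r was -0.37, and in the other groups it was 0.61 to 0.79. For Ilp3 and Ilp5 r was 0.47 (permutation p 0.0262, adjusted 0.105) and rho 0.26 (permutation p 0.241, adjusted 0.482), and r was 0.32 without the 2 farthest heads. The 3 pairs with Dsk had r between 0.15 and 0.26 and rho between -0.01 and 0.08 (permutation p adjusted 0.567 or more). Pdf and Nplp1 had r of 0.33 and rho of 0.30 (permutation p adjusted 0.287 and 0.482), and Akh and Capa had r of -0.03 and rho of 0.17 (0.88 and 0.737). These pairs share the head and its library, and Ilp2 and Ilp3 both overlap the span of CG32052.

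Of the stress and metabolic hormones, Crz (corazonin, active in stress and in sperm transfer of males) had a median of 36.2 RPKM. Trained heads lay from 28.5 to 39.2 RPKM (median 35.1) with 1 session and from 28.8 to 46.3 RPKM (median 38.5) with 3 sessions, and overlapped widely. Their log2 difference was 0.14 ± 0.10 (SE, limma adjusted p 0.408), and the differences after training were 0.05 and 0.02. Akh, the glucagon-like adipokinetic hormone, is made in the corpora cardiaca, which lie outside the head capsule in the adult. It was nearly absent, at 0.114 to 0.846 RPKM or 2 to 16 reads a head.

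None of the 6 feeding peptide genes passed the test in any comparison. sNPF and NPF, both of which promote feeding, had medians of 56.3 and 21.4 RPKM, and their log2 differences after training were -0.02 and 0.12 with 1 session and 0.01 and 0.10 with 3. AstA, an allatostatin that restrains feeding, had a median of 12.5 RPKM and differences of -0.13 and -0.09. CCHa1 was low, at 3.72 to 5.53 RPKM over all heads, with differences of 0.01 and 0.05. In the training comparisons the limma adjusted p of these 4 genes was 0.484 or more. CCHa2 ranged from 154 to 204 RPKM (median 193) among 1X mock heads and from 109.7 to 216 RPKM (median 151) after 1X training. Only 1 trained head lay above the mock mean of 186 RPKM, yet the groups overlapped, and the log2 difference of -0.30 ± 0.15 (SE) did not pass (limma adjusted p 0.26). Hug, whose pyrokinin-type peptides suppress feeding, lay between 12.4 and 13.4 RPKM in all 6 of the 3X mock heads (median 12.9) and between 11.8 and 18.4 RPKM in 3X trained heads (median 14.2). The log2 difference was 0.17 ± 0.10 (SE, limma adjusted p 0.342). Hug overlaps Octbeta3R.

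Among the peptides of water balance, Dh44 and Dh31, diuretic hormones of the corticotropin-releasing and calcitonin types, had medians of 35.9 and 34.6 RPKM, leucokinin (Lk) 8.99 RPKM and the antidiuretic ion transport peptide (ITP) 16.4 RPKM. ITP was the steadiest precursor gene of all, with a standard deviation within groups of 0.10 on the log2 scale and a ratio of highest to lowest head of 1.38. Dh44 overlaps Fst, Dh31 overlaps Bace, Lk overlaps CG34039 and ITP overlaps CG4622. For these 4 genes the log2 differences after training lay between -0.17 and 0.04, with limma adjusted p of 0.463 or more. Capa, whose peptides act on the renal tubules, had a median of 55.0 RPKM and 1 exceptional head, 1X mock replicate 2 at 16.1 RPKM. The other 1X mock heads held 40.7 to 62.0 RPKM and the 3X mock heads 50.4 to 65.1 RPKM (median 55.5). The log2 difference between 3X and 1X mock flies was 0.48 ± 0.20 (SE, limma adjusted p 0.21) and 0.22 without that head (limma adjusted p 0.326). The same head was lowest of all 24 for 7 of the 29 genes (it was lowest for 4.25% of all genes tested).

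Pdf, the transmitter of the ventral lateral clock neurons, had a median of 54.8 RPKM and was nearly level across the groups, with medians of 54.3 RPKM (mock) and 54.9 RPKM (trained) on the 1X schedule and of 53.6 RPKM (mock) and 56.2 RPKM (trained) on the 3X schedule. Its log2 difference between 3X and 1X flies was -0.04 for mock and 0.09 for trained males (limma adjusted p 0.869 and 0.517).

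CNMa was the only one of the 35 precursor genes whose 3X and 1X heads did not overlap. CNMa (FBgn0035282, chromosome 3L, 1850915 to 1855591, BDGP6.54, with no overlapping gene) encodes a peptide that acts on the receptor CNMaR and is known from the gut as a signal of amino acid shortage. It was below the filter and was singled out after its values were seen. On the 1X schedule levels were 0.105 to 0.362 RPKM (median 0.243) in mock and 0.162 to 0.321 RPKM (median 0.264) in trained heads. On the 3X schedule they were 0.577 to 1.59 RPKM (median 0.814) in mock and 0.632 to 1.59 RPKM (median 0.742) in trained heads. The highest of the 12 heads on the 1X schedule was thus below the lowest of the 12 on the 3X schedule. These levels rest on 7 to 28 reads a mock head and 10 to 20 reads a trained head on the 1X schedule, and on 34 to 77 and 41 to 121 reads on the 3X schedule.

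The mean of CNMa was 3.89 times as high in 3X mock as in 1X mock flies, 0.920 against 0.236 RPKM, and 3.57 times as high in 3X trained as in 1X trained flies, 0.896 against 0.251 RPKM. Since the gene was singled out for this separation, the levels are given as a description. Of the 16992 genes above 0 in any head, 2.74% did not overlap between the mock groups, 2.76% did not between the trained groups, and 0.641% separated in the same direction in both. Without the filter on low values limma called CNMa in both mock and trained flies, where 2.3% and 5.75% of all 16992 genes passed. On recovered reads with a minimum of 10 reads, an alternative chosen after seeing the data, voom gave log2 differences of 1.97 ± 0.32 and 1.79 ± 0.32 (SE). It also called CNMa in both, where 3.91% and 9.42% of genes passed. Because CNMa was picked for this separation, these calls do not test it. The mock and trained comparisons share no heads, but they share the schedule contrast and 1 variance estimate.

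Mock and trained heads overlapped in CNMa on both schedules. The log2 difference was 0.02 after 1X training (exact permutation p 0.732) and -0.02 after 3X training (exact permutation p 0.859). The clock genes moved with the schedule in the same heads. The RPKM of tim was 8.17 to 21.8 in the 12 heads of the 1X schedule and 74.9 to 128 in the 12 of the 3X schedule, and that of per was 3.91 to 7.71 and 14.5 to 20.6. The part of the hour of collection in the CNMa difference cannot be told apart from the number of sessions. The CNMaR transcript was 4.71 to 6.49 RPKM over all heads, with log2 differences of -0.06 and -0.04 between 3X and 1X flies (limma adjusted p 0.64 and 0.682), and it overlaps fry.

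**Figure D4:**
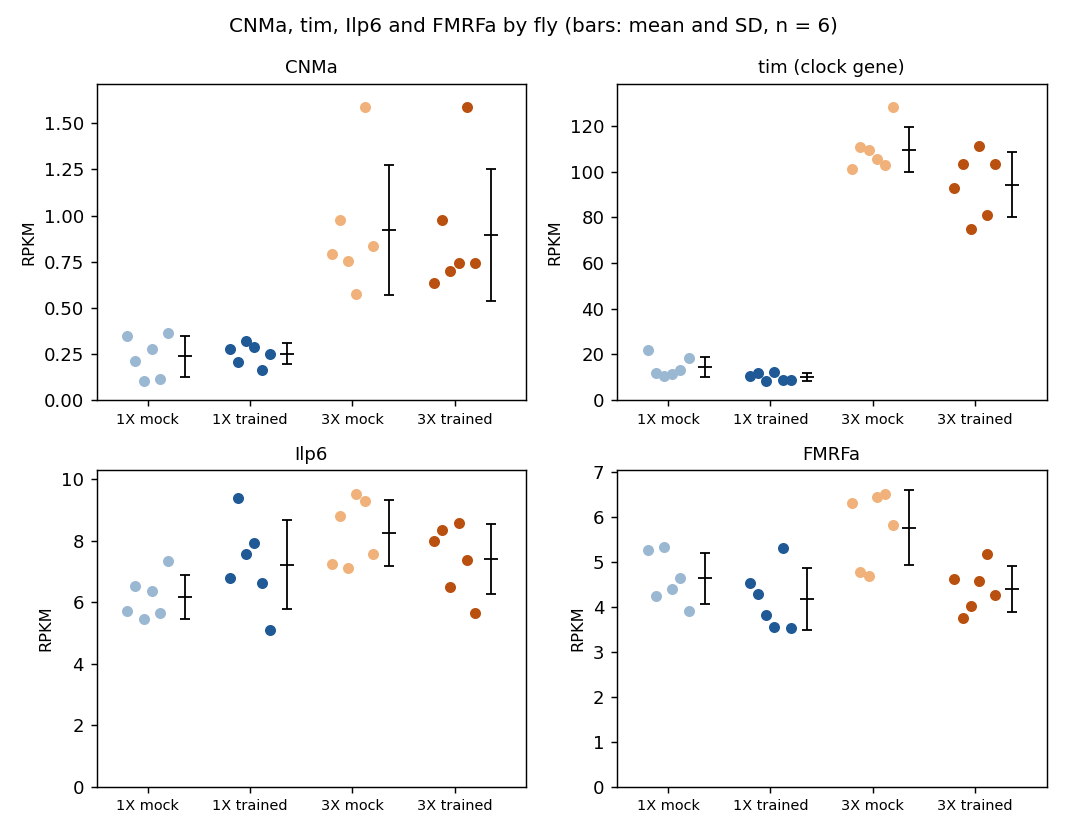
RPKM of CNMa, of the clock gene tim and of the precursor genes Ilp6 and FMRFa in each head by group (points: single flies; bars: mean and SD, n = 6; every axis starts at 0). All 12 heads of the 3X schedule lie above all 12 of the 1X schedule for CNMa and for tim, whereas the groups overlap for Ilp6 and FMRFa.

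The myomodulatory peptides held the 2 genes nearest to the threshold after 3X training. FMRFa (FBgn0000715), whose precursor yields several amidated peptides that modulate muscle, ranged from 4.68 to 6.51 RPKM (median 6.06) among 3X mock heads and from 3.74 to 5.17 RPKM (median 4.42) after 3X training. All 6 trained heads were below the mock mean of 5.75 ± 0.834 RPKM, their own mean being 4.40 ± 0.504 RPKM (SD, n = 6 each), and the groups overlapped through 2 mock heads, at 4.68 and 4.76 RPKM. On the log2 scale the groups differed by -0.32 ± 0.09 (SE, limma adjusted p 0.0591). It passed in 2 of 36 alternative fits. In 1 of them the head left out was 1X trained replicate 1, which is outside the comparison and enters through the shared variance (limma adjusted p 0.0448). Over the 36 fits the limma adjusted p reached 0.159. The 3X mock group also stood above 1X mock, where FMRFa was 3.91 to 5.33 RPKM (median 4.51), the log2 values differing by 0.26 ± 0.09 (SE), which did not pass (limma adjusted p 0.123). The 1X trained heads held 3.52 to 5.31 RPKM (median 4.06), and the difference after 1X training was -0.13 (limma adjusted p 0.468).

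Proc, the proctolin precursor, a modulator of muscle contraction, ran the other way. On the 3X schedule mock heads held 10.04 to 13.4 RPKM (median 11.3) and trained heads 11.5 to 15.5 RPKM (median 12.98), and all 6 trained heads exceeded the mock mean. The log2 difference was 0.22 ± 0.07 (SE, limma adjusted p 0.0931). It passed in 1 of 36 alternative fits, the one without 3X trained replicate 1 (limma adjusted p 0.0473). Over the 36 fits the limma adjusted p reached 0.183. After 1X training Proc was 11.2 to 13.3 RPKM (median 12.3) against 9.38 to 11.9 RPKM (median 11.03), again with all 6 trained heads above the mock mean, and the difference of 0.15 ± 0.07 (SE) did not pass (limma adjusted p 0.252). Such a pattern was not limited to genes near the threshold. On the log2 scale it also held for Nplp3 after 3X training (6 of 6 above, limma adjusted p 0.731). For Nplp1 after 1X training 0 of 6 lay above the mock mean (limma adjusted p 0.489). Its share over all genes tested was not counted. The 2 training comparisons share no heads. Myosuppressin (Ms), at 61.6 RPKM, and SIFa, a peptide of a few brain neurons that bears on courtship and sleep, at 28.8 RPKM, had log2 differences from -0.17 to 0.04 after training (limma adjusted p 0.398 or more). SIFa overlaps Start1.

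Tk ranged from 66.9 to 88.2 RPKM (median 77.6) among 1X mock heads and from 78.4 to 102.0 RPKM (median 88.5) after 1X training. All 6 trained heads were above the mock mean, the groups overlapped, and the difference was 0.19 ± 0.09 (log2, SE) with a limma adjusted p of 0.246. Among the 3X flies the medians were 82.5 RPKM for mock and 86.4 RPKM for trained males, with a difference of -0.05 (limma adjusted p 0.823). The training effects of the 2 schedules on Tk differed by -0.24 ± 0.13 (SE, limma adjusted p 0.512), and those on Ilp6 by -0.33 ± 0.15 (SE, limma adjusted p 0.414), so neither was shown to depend on the schedule. Tk overlaps Ect3. Dsk, a cholecystokinin-type precursor linked to satiety and aggression, had a median of 43.0 RPKM and lay 0.29 ± 0.14 higher (log2, SE) in 3X than in 1X mock flies, which did not pass (limma adjusted p 0.271), and it overlaps CR33294. The inhibitory allatostatins Mip, whose peptides also bind the sex peptide receptor, and AstC had medians of 25.1 and 19.1 RPKM and differences of 0.01 and -0.04 after 1X and -0.10 and -0.08 after 3X training. Trissin, at 20.7 RPKM, differed by 0.00 and -0.09.

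The neuropeptide-like precursors differed in how steady they were. Nplp1 (51.5 RPKM) varied by a ratio of 1.39 between the highest and the lowest head. Nplp3 (FBgn0042201, chromosome 3L, 16318024 to 16318690, with no overlapping gene) varied by 5.88, or from 552 to 1239 RPKM once 1X trained replicate 1 is set aside. Its group medians were 936 RPKM (mock) and 1034 RPKM (trained) on the 1X schedule and 856 RPKM (mock) and 904 RPKM (trained) on the 3X schedule, and its log2 differences after training were -0.12 ± 0.30 and 0.22 ± 0.30 (SE, limma adjusted p 0.875 and 0.731). Nplp4 was low at 0.719 to 3.17 RPKM. Over the 29 genes the median standard deviation within groups was 0.18 on the log2 scale, against 0.12 over all genes tested, and in 24 of the 29 the highest head was under 2 times the lowest.

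The remaining genes were below the filter. The ecdysis peptide gene CCAP (19 to 47 reads a head), AstCC (5 to 35 reads) and RYa (2 to 13 reads) reached at most 1.07, 0.785 and 0.899 RPKM, where small differences between groups are not detectable at this depth. Eclosion hormone (Eh, FBgn0000564, chromosome 3R, 17446642 to 17448858, with no overlapping gene) triggers moulting behaviour and is made by a pair of brain neurons. It was 10.5 RPKM, or 246 reads, in 1X mock replicate 1 and 0.611 RPKM or less, 0 to 13 reads, in the other 23 heads. Eh was noticed after its values were seen, and a single head gives no comparison.

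Genes that receive or process the peptides were taken from lists. Of 36 receptor genes, 32 were tested, and after 1X training 1 of them was called, where 4.94% of all genes tested were. InR, the insulin receptor, was not analysed, because its current identifier was not matched. Lgr3, PK2-R2 and CapaR were below the filter. The transcript of AkhR, the adipokinetic hormone receptor of fat body (FBgn0025595, chromosome 2L, 6711286 to 6716186), fell after 1X training. It was 27.5 to 41.9 RPKM (median 34.8) among mock and 9.80 to 17.9 RPKM (median 15.3) among trained heads. The groups did not overlap, which held for 3.89% of all genes tested, and the log2 difference was -1.20 ± 0.17 (SE, limma adjusted p 0.000302). After 3X training AkhR was 12.7 to 35.0 RPKM (median 25.3) against 28.0 to 39.7 RPKM (median 33.8), with a difference of -0.49 ± 0.17 (SE) that did not pass (limma adjusted p 0.103). The 1X and 3X effects were not shown to differ (0.70 ± 0.24, SE, limma adjusted p 0.228). 3X trained flies held more AkhR than 1X trained flies, by 0.64 ± 0.17 (log2, SE, limma adjusted p 0.0166), though not when only these groups were fitted (limma adjusted p 0.0957).

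The summed level of the fat body markers, to which 1 gene contributed a median of 4103 RPKM, was also lower at the median in trained heads, though the groups overlapped. On the 1X schedule it was 5321 to 10176 RPKM (median 7310.1) in mock and 638 to 8470.1 RPKM (median 4770.1) in trained heads. On the 3X schedule it was 3499 to 8141 RPKM (median 5408) in mock and 1898 to 5460.3 RPKM (median 2909.6) in trained heads. Of the 7 markers that passed the filter, 6 had a negative difference after 1X training and 4 after 3X training, 1 was called higher and 0 lower after 1X training, and 0 were called after 3X training. Their part in the AkhR difference was not tested. Without 1X trained replicate 1, the head with the lowest sum, the AkhR difference after 1X training was -1.09 ± 0.17 (SE, limma adjusted p 0.000564). The ligand, Akh, was at 2 to 14 reads a head in all 12 of the 1X flies.

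The other receptor calls were small. MsR1, a myosuppressin receptor, was 4.44 to 5.16 RPKM among 3X mock and 3.37 to 4.51 RPKM among 3X trained heads and fell by 0.25 ± 0.06 (log2, SE, limma adjusted p 0.037) after 3X training. Between 3X and 1X mock flies SPR, the receptor of sex peptide and of Mip peptides, fell by 0.21 ± 0.06 (log2, SE, limma adjusted p 0.0372), from 26.1 to 22.4 RPKM, and it overlaps frma. Between 3X and 1X trained flies AstA-R2, an allatostatin A receptor, fell by 0.31 ± 0.09 (log2, SE, limma adjusted p 0.0359), from 1.92 to 1.37 RPKM, close to the filter. Each of these 3 calls was lost when any 1 of several heads was left out. The numbers of receptor genes called were 1, 1, 1, 2 and 0 of 32 in the 5 comparisons, in the order used above, where 4.94%, 2.27%, 4.34%, 11.1% and 0.171% of all genes were called, so these counts are near the background. Negative differences, called or not, stood at 23 of 32 receptor genes after 1X and 25 of 32 after 3X training, with medians of -0.04 and -0.07, and at 5187 and 4963 of all 10547 genes tested. Neuron markers (9 and 8 of 11) and peptide processing genes (12 and 12 of 18) leaned to the same side.

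**Figure D5:**
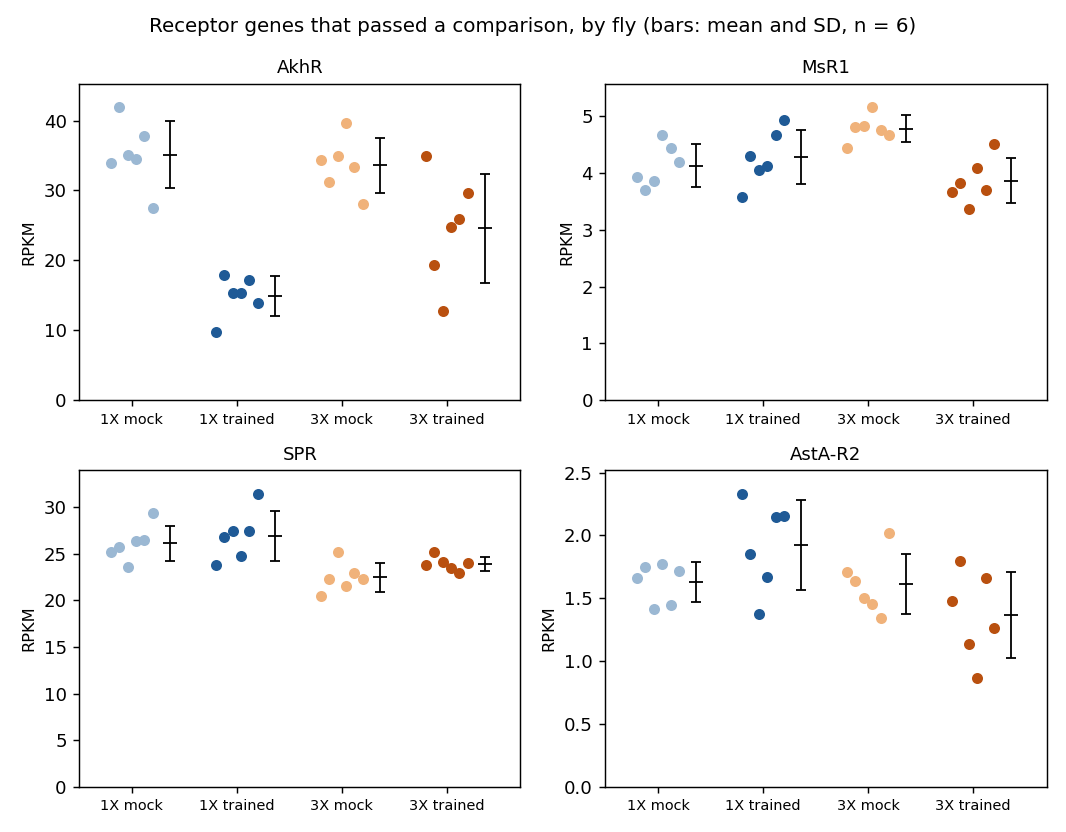
RPKM of the 4 receptor genes called in a comparison, in each head by group (points: single flies; bars: mean and SD, n = 6; every axis starts at 0). For AkhR all 6 of the 1X trained heads, at 17.9 RPKM or less, lie below all 6 of the 1X mock heads, and for MsR1, SPR and AstA-R2 the groups overlap.

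Of 22 genes that process, release or break down peptides, 18 were tested and 1 was called in 1 comparison, between 3X and 1X mock flies, where 4.34% of all genes were called. Nep1, a neprilysin that cleaves peptides outside the cell, rose from 7.29 to 8.98 RPKM between 1X and 3X mock flies (log2 0.28 ± 0.07, SE, limma adjusted p 0.026), and it overlaps Mipp2. Between the trained groups its difference was 0.22 (limma adjusted p 0.0527). The prohormone convertase amon, the vesicle release factor Cadps and the other tested genes of this list did not pass in any comparison. Phm and Pal1 were not analysed, because their current identifiers were not matched, and dimm and Nep5 were below the filter. Of 21 further peptide and secreted factor genes 13 were tested, and daw, an activin-type ligand, was the only one called, again between the mock groups, where the background was 4.34%. It rose from 12.7 ± 3.17 to 20.9 ± 2.96 RPKM (SD, n = 6 each) between 1X and 3X mock flies, a log2 rise of 0.69 ± 0.17 (SE) with a limma adjusted p of 0.0156. Between the trained groups 0 of the 13 were called, and spab passed there with sample weights or without 3X trained replicate 3 or 6.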

How the data were processed

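Single heads were sequenced as unstranded SMART-Seq libraries. Per the labels and the submitters' processing notes the authors used bcl2fastq 2.18, TopHat2 2.0.13, edgeR 3.18.1 and the dm6 build, and deposited RPKM values per gene. Replicates are separate flies. No pair of libraries was identical. Whole reads were recovered from the RPKM with exon lengths of the Ensembl annotation of BDGP6.54, within a tolerance of 0.02 for all 16992 genes above 0 (fitted lengths for 708), and serve only for reads per gene and the voom alternatives. No sequences were used.

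Genes reaching 1 RPKM in 6 or more of 24 flies were tested with limma 3.58.1 (R 4.3.3; 1 mean per group, trend) on log2(RPKM + 1) because RPKM are not counts, so differences of low genes are understated. All 24 flies share 1 variance estimate. Intervals are 95%. Training differences of CNMa, below the filter, were tested with an exact permutation test. The recovery of reads and the limma fit were tried on simulated data, the fit with 200 genes shifted by 1 on the log2 scale. Differences as small as those of the tested precursor genes were not simulated. Named genes are the 3 of smallest p in each comparison, the 3 highest medians and listed genes that passed, others being chosen after seeing values. The members and lists were chosen with earlier results of these data known. Same-numbered flies of different groups did not deviate together (3 of 24 correlations over 0.1), so the main fits have no block.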

Additional observations from a re-analysis of the deposited data

Results flagged for a closer look

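In groups of 6 heads, 10 of the 140 combinations of gene and group held a head whose gap to its nearest neighbour was past Dixon's 95% limit for its share of the group's range, where chance alone gives about 7. The largest gap was that of Eh in 1X mock replicate 1 (0.969 of the range, 10.5 RPKM against 0.323 RPKM for the next). 1X trained replicate 1 was far below the rest in Ilp2 (0.900 of the range, 32.7 against 49.7 RPKM) and Ilp5 (0.830 of the range, 24.7 against 69.8 RPKM), and Ilp2 was also low in 1X mock replicate 3 (0.679 of the range, 36.3 against 45.1 RPKM). The other heads that stood apart were each high in 1 gene. Dh44 was 45.6 RPKM in 3X mock replicate 1 (0.666 of the range), Mip was 32.7 RPKM in 1X trained replicate 2 (0.750 of the range) and CCHa2 was 230.1 RPKM in 3X mock replicate 4 (0.733 of the range). Among genes below the filter, CCAP was 0.933 RPKM in 1X mock replicate 2 (0.683 of the range), RYa was 0.899 RPKM in 3X trained replicate 6 (0.783 of the range) and CNMa was 1.59 RPKM in 3X trained replicate 5 (0.638 of the range).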

How the results depend on the processing

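The result that no precursor gene passed after 1X training, and in the difference of training effects, held in every alternative run, which were other pseudocounts, filters, scalings, weights, group subsets, the block, voom on recovered reads and leaving out each head. After 3X training 1 gene passed with the replicate block (FMRFa, limma adjusted p 0.0447) and leaving out 1 head gave 0 to 1. Between 3X and 1X mock flies 1 passed with sample weights (Ilp6, limma adjusted p 0.0288), with only the groups compared (Ilp6, 0.0178) and with the replicate block (Ilp6, 0.0328), 1 passed with no filter on low values and 1 with voom at a filter of 10 reads (CNMa in both), and leaving out 1 head gave 0 to 1. Between 3X and 1X trained flies 1 passed with no filter and 1 with voom at a filter of 10 reads (CNMa), and leaving out 1 head gave 0.

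Leaving out 1 head, receptor genes called ranged from 1 to 2 after 1X training, 0 to 2 after 3X training, 0 to 1 between mock groups, 1 to 4 between trained groups and 0 to 0 in the difference. After 3X training 0 were called with no filter, with a filter of 5 RPKM and with only the groups compared. Between mock groups 0 were called with no filter and 2 with sample weights, between trained groups 1 with no filter, 1 with a filter of 5 RPKM and 0 with only the groups compared, and in the difference 1 with sample weights. The MsR1 call was lost without 3X mock replicate 1, 2, 3, 4 or 6 or 3X trained replicate 2, 3 or 5 (limma adjusted p up to 0.114), the SPR call without 1X mock replicate 2, 4, 5 or 6 or 3X mock replicate 1, 2, 4, 5 or 6 (up to 0.0954), and the AstA-R2 call without 1X trained replicate 1, 2, 5 or 6 or 3X trained replicate 3, 4 or 6 (up to 0.0951), as also without both libraries that stand apart, an alternative chosen after seeing the data (0.0579), and with sample weights (0.0523), no filter (0.0526) or the compared groups alone (0.133). Processing genes called ranged from 0 to 2 after 3X training, 0 to 1 between mock groups and 0 to 1 between trained groups when 1 head was left out. After 3X training 1 was called with a filter of 5 RPKM, median-ratio scaling, quantile normalization, sample weights, voom and without both libraries. Between mock groups 0 were called with only the groups compared and with the replicate block (Nep1, limma adjusted p 0.0532), and the Nep1 call was also lost without 1X mock replicate 4 or 6 or 3X mock replicate 2, 3, 4 or 6 (up to 0.0722). Between trained groups 1 was called with a filter of 5 RPKM, 2 with sample weights, 1 with voom and 1 without both libraries. The block changed no other call named here. For Ilp5 and Dsk r turned from 0.26 to -0.055 without the 2 farthest heads. The causes of these changes were not tested.

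Counts over all genes were 521 after 1X training (302 to 894 over the alternatives), 239 after 3X training (26 to 612), 458 between mock groups (330 to 728), 1172 between trained groups (568 to 1630) and 18 in the difference (3 to 120), the last falling to 8 with the replicate block. With no filter they were 345 after 1X training, 109 after 3X training and 9 in the difference, with sample weights 894, 382 and 120 (728 between mock groups), with the compared groups alone 54 after 3X training and 568 between trained groups, and without both libraries 33 in the difference. On recovered reads voom called 272 genes higher and 219 lower after 1X training, and 190 higher and 114 lower after 3X training. The share of higher calls after 3X training was 65.7%, but 53.8% with median-ratio scaling and 42.9% with quantile normalization. Depth limits the 6 genes below the filter, since 2 to 47 reads a head for CCAP, Akh, RYa and AstCC leave only large differences visible.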
